A study of Drosophila ananassae with 22 samples.

Results

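The first 6 hr of embryogenesis in Drosophila ananassae were examined by comparing embryos collected at 3-6 hr after egg laying with embryos collected at 0-3 hr. Each window holds 3 RAMPAGE libraries, 1 for each hour of collection, out of 22 hourly libraries in the series. RAMPAGE sequences both ends of cDNAs that reach the capped 5′ end of a transcript, and neighbouring start sites are grouped into transcription start site clusters (TSCs), each standing for a promoter. Expression is given in reads per 1000000 (RPM), the share of a library's reads that start in a TSC. TSCs with at least 10 RPM in any of the 6 libraries were kept, which selected 8096 of 27105 TSCs, and the same rule selected 5769 of 8758 rows of the gene table. No measured difference between the windows was used to choose them.

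All 6 libraries came from whole, dechorionated embryos of the reference genome strain In(3R)A (stock 14024-0371.13), raised and collected in the same way and given no treatment. The 3-6 hr window is made of the 3-4, 4-5 and 5-6 hr collections and the 0-3 hr window of the 0-1, 1-2 and 2-3 hr collections. Each library is a pool of embryos laid within 1 hr. In the study each hour was barcoded at reverse transcription and the series processed together, so a library here means the reads of 1 hour. There was no second library of the same hour, so the 3 neighbouring hours of a window stood in for replicates. The p-values below therefore measure differences between windows against the spread between neighbouring hours, which contains developmental change within a window as well as error.

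A newly laid fly egg carries RNA and protein that the mother placed in it, and its nuclei divide for some time with little transcription of their own. As the zygotic genome is activated, many maternal RNAs are degraded and the embryo's own genes take over, in a handover that precedes and accompanies cellularization and gastrulation. An RNA sampled during these hours can be left over from the egg, newly transcribed, or both, and a 5′ end assay such as RAMPAGE marks the promoter it was made from in either case.

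The libraries held 4863882 (3-4 hr), 2248833 (4-5 hr) and 1422848 (5-6 hr) reads in TSCs at 3-6 hr, against 8164480, 6381097 and 4958999 at 0-1, 1-2 and 2-3 hr. Depth thus fell with each hour and cannot be told apart from age. A single read was worth 0.206 to 0.703 RPM at 3-6 hr, against 0.122 to 0.202 RPM at 0-3 hr. A count of 0 reads allows a level of up to 2.11 RPM at 5-6 hr and of up to 0.367 RPM at 0-1 hr (3 reads each), by counting error alone. Because RPM are shares, less RNA from one promoter cannot be told apart from more RNA from the others. Gene names are not paired with the identifiers in the tables used here, so promoters are given by position on the FlyBase r1.3 scaffolds, and known markers of early and late embryos could not be set against the labelled hours.

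At equal depth, more TSCs had a read in the later window. With every library thinned to 1422848 reads, 15814, 15738 and 15623 TSCs had a read at 3-4, 4-5 and 5-6 hr, against 12425, 13109 and 14217 at 0-1, 1-2 and 2-3 hr. The thinned groups did not overlap, with means of 15725 ± 96.2 at 3-6 hr and 13250 ± 904 at 0-3 hr (SD, n = 3 each), and the two-sided exact permutation p was 0.1, the smallest that 3 against 3 libraries can give. Without thinning the windows overlapped, with 19502, 17079 and 15623 TSCs at 3-4, 4-5 and 5-6 hr, against 16595, 16787 and 17756 at 0-1, 1-2 and 2-3 hr (exact permutation p = 0.8). Requiring 3 reads per TSC after thinning gave 10933 ± 43.1 and 9436 ± 409 (SD, n = 3 each; exact p = 0.1). The 100 strongest TSCs took 30.8% ± 0.465 of the reads at 3-6 hr and 27.9% ± 1.64 at 0-3 hr (SD, n = 3 each), also without overlap (exact permutation p = 0.1), but the 10 strongest took 9.12% ± 0.490 and 8.32% ± 0.666 (SD, n = 3 each), which overlapped (exact permutation p = 0.2).

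To find the promoters that changed between the windows, log2(RPM + 1) of each TSC was compared by limma, with Benjamini-Hochberg adjustment over all 8096 TSCs and a threshold of 0.05. The table lists some positions once for each of several genes, so that 83 of the 8096 rows repeat another, and with 1 row per position 1443 of 8013 TSCs were higher and 1410 lower. Over all rows, 1458 TSCs were higher at 3-6 hr (18.0% of those tested) and 1424 were lower (17.6%), together 35.6%. A TSC that passed the minimum of 10 RPM in 1 window alone was bound to differ, and 1286 did so only at 3-6 hr, of which 791 were called higher, and 1002 only at 0-3 hr, of which 512 were called lower. Of the 5808 that passed in both windows, 667 were higher (11.5%) and 912 lower (15.7%). The risen TSCs had a median log2 difference of 2.45 and the fallen ones of -1.84, and 96.6% and 93.5% of them changed at least 2-fold. The 3 values of one window all lay beyond the 3 of the other for 1425 of the risen and 1411 of the fallen TSCs, whereas over all TSCs tested this held upwards for 1984 (24.5%) and downwards for 2080 (25.7%). The median log2 difference of all TSCs was -0.08, and -0.27 after trimmed-mean (TMM) scaling, which called 1289 higher and 1781 lower. On the recovered reads, edgeR's quasi-likelihood test called 1246 higher and 1316 lower, of which 1212 and 1245 were also called by limma.

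**Figure D1:**
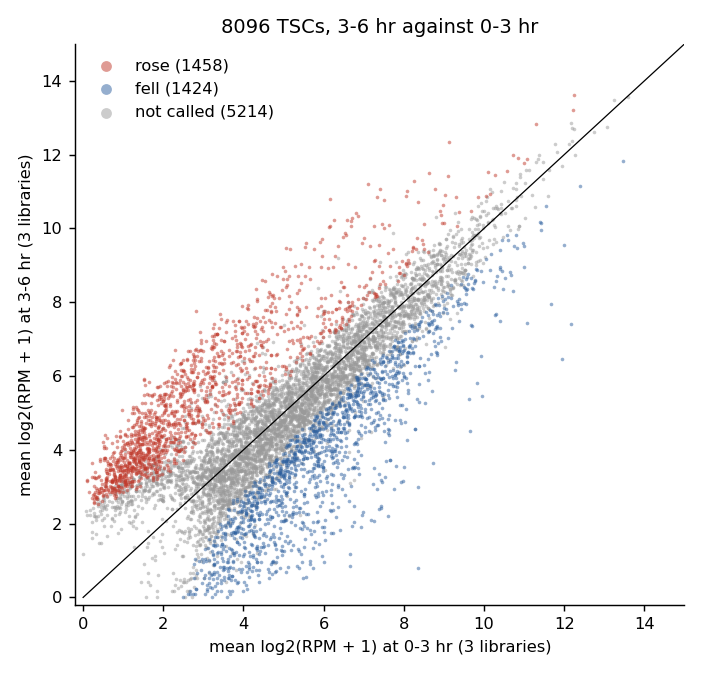
Mean log2(RPM + 1) of 8096 TSCs over the 3 libraries of 3-6 hr (y axis) against the 3 libraries of 0-3 hr (x axis), with 1458 TSCs that rose in red, 1424 that fell in blue and 5214 not called in grey; the line marks equal levels. Risen TSCs lie mainly at low levels of the 0-3 hr axis, and fallen TSCs reach higher levels on it.

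These counts depended on single libraries. They were 1012 higher and 871 lower without 0-1 hr, 776 and 617 without 1-2 hr, 921 and 943 without 4-5 hr, 823 and 899 without 5-6 hr, and 1793 and 1982 without 2-3 hr, and none of these settings called a TSC in the opposite direction.

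In terms of RNA, the risen and the fallen promoters exchanged places. The 1458 risen TSCs held 22.7%, 24.4% and 27.0% of the RPM at 3-4, 4-5 and 5-6 hr, against 5.78%, 6.33% and 8.83% at 0-1, 1-2 and 2-3 hr. The 1424 fallen TSCs held 8.52%, 7.60% and 7.45% at 3-4, 4-5 and 5-6 hr, against 28.1%, 27.4% and 21.9% at 0-1, 1-2 and 2-3 hr. TSCs that were not called held 63.8% to 67.1% at 3-6 hr and 65.1% to 68.1% at 0-3 hr. These shares follow from the calls and are given as a description. Within the risen class 50 TSCs held 50 percent of its RPM at 3-6 hr, and within the fallen class 86 did so at 0-3 hr.

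The change was concentrated in time. Taking each hour against the hour before it, over all 8096 TSCs whether called or not, 316 TSCs were at least 2-fold higher and 362 lower at 1-2 hr than at 0-1 hr, on the log2(RPM + 1) scale. At 2-3 hr 1039 were higher and 1469 lower than at 1-2 hr, and at 3-4 hr 1914 were higher and 1558 lower than at 2-3 hr. The numbers then came to 804 and 757 at 4-5 hr and to 767 and 752 at 5-6 hr. As a share of all TSCs, those that moved 2-fold in either direction were thus 8.37%, 31.0%, 42.9%, 19.3% and 18.8% at the 5 successive steps. The step with the fewest changes lay between the 2 deepest libraries and the last 2 steps involved the 2 least deep ones, and the part of depth in these numbers was not tested.

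**Figure D2:**
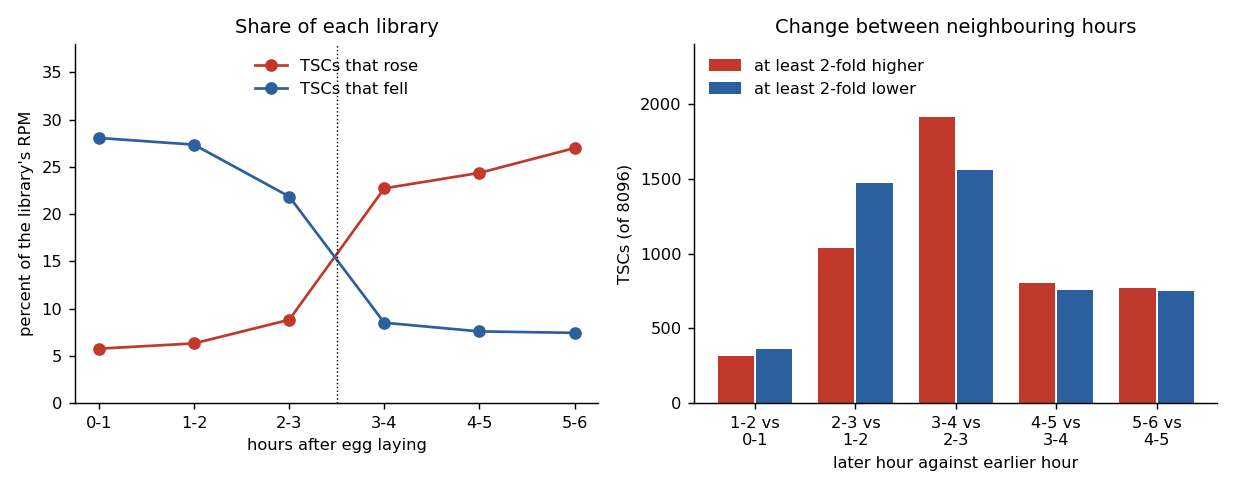
Left, percent of each library's RPM in the TSCs that rose (red) and fell (blue) for the 6 hourly collections, 1 library each; the dotted line separates the windows. Right, number of TSCs of 8096 at least 2-fold higher (red) or lower (blue) than in the hour before, on the log2(RPM + 1) scale, with the tallest pair of bars at 3-4 hr against 2-3 hr (1914 and 1558).

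Within the first window, the risen class already moved more often than other TSCs, and the fallen class little more often. Of the risen TSCs, 726 (49.8%) were already at least 2-fold higher at 2-3 hr than at 0-1 hr, against 15.3% of all TSCs tested and 9.40% of those not called. Of the fallen TSCs, 415 (29.1%) were already at least 2-fold lower at 2-3 hr than at 0-1 hr, against 21.9% of all TSCs tested and 25.4% of those not called. After 3 hr, 349 of the risen TSCs (23.9%) were at least 2-fold higher at 5-6 hr than at 3-4 hr and 105 lower, beside 12.4% higher among all TSCs tested. Of the fallen TSCs 256 (18.0%) were at least 2-fold lower and 60 higher, beside 11.9% lower among all TSCs tested. These shares are partly set by the calls, which favour a small spread within each window. Among the 3 hours of their own window, risen TSCs were highest at 5-6 hr in 732 cases, at 4-5 hr in 380 and at 3-4 hr in 346. Fallen TSCs were highest at 0-1 hr in 678 cases, at 1-2 hr in 430 and at 2-3 hr in 316.

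Few of the risen promoters started from nothing that these libraries could see. Their mean at 0-3 hr was under 1 RPM for 166 (11.4%), 1 to 10 RPM for 781 (53.6%) and 10 RPM or more for 511, and none of them lacked a read in all 3 libraries of 0-3 hr. Those 3 libraries were the deepest of the 6, so having a read there says little about level. Risen TSCs under 1 RPM had a median log2 difference of 2.54 and those at 10 RPM or more had one of 2.06, with median levels of 8.81 and 162 RPM at 3-6 hr.

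The attributed TSC with the largest rise belonged to FBgn0088931, a gene with 4 listed TSCs, and lay at scaffold_13250:268679-268765 on the plus strand (87 bp). It had 254.9, 270.8 and 142.7 RPM at 3-4, 4-5 and 5-6 hr, against 4.41, 8.93 and 5.44 RPM at 0-1, 1-2 and 2-3 hr. All 3 later libraries thus lay more than an order of magnitude above all 3 earlier ones, with a log2 difference of 4.94 ± 0.39 (SE; limma, adjusted p = 0.00134). The level came to 76.5 RPM at 6-7 hr and 0.679 RPM at 12-13 hr, so this promoter was strong for only a few hours. FBgn0097396 had the next largest rise, from 1 of its 3 listed TSCs, at scaffold_13417:860097-860235 (plus strand, 139 bp). It had 95.0, 74.7 and 157.4 RPM at 3-4, 4-5 and 5-6 hr, against 2.94, 5.33 and 3.63 RPM at 0-1, 1-2 and 2-3 hr (log2 difference 4.43 ± 0.39, SE; limma, adjusted p = 0.00138), and fell below 1 RPM from 14-15 hr on.

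Among TSCs that the authors attributed to no gene, the largest rise was at scaffold_13337:4149986-4150162 (plus strand, 177 bp). It reached 1568, 1575 and 2241 RPM at 3-4, 4-5 and 5-6 hr, against 68.1, 89.8 and 56.7 RPM at 0-1, 1-2 and 2-3 hr (log2 difference 4.63 ± 0.29, SE; limma, adjusted p = 0.001). Its 3 early values were flat, with no rise towards 3 hr, and it stayed at 2062 RPM at 6-7 hr before dropping to 59.1 RPM at 12-13 hr. The next, at scaffold_13337:1679047-1679152 (minus strand, 106 bp), had 43.4, 70.3 and 48.5 RPM at 3-4, 4-5 and 5-6 hr, against 0.857, 2.04 and 3.43 RPM at 0-1, 1-2 and 2-3 hr (log2 difference 4.20 ± 0.44, SE).

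The most abundant risen promoters were chosen after their values were seen. The TSC at scaffold_12943:4436102-4436226 (minus strand), of a gene with 6 listed TSCs, had 11681, 13350 and 12455 RPM at 3-4, 4-5 and 5-6 hr, against 3850, 5368 and 5443 RPM at 0-1, 1-2 and 2-3 hr, so that it rose only 2.56-fold in the means from an already high level. The TSC at scaffold_12911:5191108-5191504 (plus strand, 397 bp) climbed through the 3 later hours, with 2654, 4069 and 13079 RPM at 3-4, 4-5 and 5-6 hr, against 343, 478 and 1049 RPM at 0-1, 1-2 and 2-3 hr. It reached 20869 RPM at 6-7 hr, 2.09% of that library.

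Fallen promoters kept a remainder more often than they vanished. Their mean at 3-6 hr was under 1 RPM for 107 (7.51%), 1 to 10 RPM for 504 (35.4%) and 10 RPM or more for 813 (57.1%), and 3 had no read in any library of 3-6 hr. The median fallen TSC had 21.4% of its 0-1 hr level left at 5-6 hr, where the median over all TSCs was 88.6%. Of the fallen TSCs, 421 (29.6%) had less than 10 percent left, against 6.77% of all TSCs tested. Both hours entered the calls, so these values are given as a description.

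The 2 attributed TSCs with the largest falls were not highest in the youngest embryos. The TSC of FBgn0092174 at scaffold_12916:4484893-4484957 (plus strand, 65 bp), the only one listed for that gene, had 1.85, 0.889 and 0 RPM at 3-4, 4-5 and 5-6 hr, against 64.1, 459.6 and 1165 RPM at 0-1, 1-2 and 2-3 hr. It climbed through the first 3 hours and was at 9 reads by 3-4 hr, for a log2 difference of -7.54 ± 0.95 (SE; limma, adjusted p = 0.00233). FBgn0091545 had a like profile from a single TSC of 16 bp at scaffold_12916:7871440-7871455 (minus strand), with 4.73, 0 and 0 RPM at 3-4, 4-5 and 5-6 hr, against 13.4, 91.2 and 767 RPM at 0-1, 1-2 and 2-3 hr (log2 difference -5.81 ± 1.32, SE; limma, adjusted p = 0.0119). The call on FBgn0091545 was lost without 4-5 hr (adjusted p = 0.0512) and without 5-6 hr (adjusted p = 0.0552). In the fallen class 26 of 1424 (1.83%) were at least 2-fold higher at 2-3 hr than at 0-1 hr, against 15.3% of all TSCs tested, and such a spread within a window makes a call less likely.

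The unattributed TSC with the largest fall had the opposite shape. At scaffold_13117:3988026-3988140 (plus strand, 115 bp) it had 47.7, 306 and 45.7 RPM at 3-4, 4-5 and 5-6 hr, against 17085, 6769 and 517 RPM at 0-1, 1-2 and 2-3 hr. It alone was 1.71% of the 0-1 hr library and had lost most of that by 2-3 hr (log2 difference -5.46 ± 1.23, SE; limma, adjusted p = 0.0114). Without 5-6 hr its call was lost (adjusted p = 0.0551). The next, at scaffold_12984:752928-752989 (plus strand, 62 bp), was level at first and then dropped, with 1.44, 2.22 and 0 RPM at 3-4, 4-5 and 5-6 hr, against 58.9, 57.2 and 35.3 RPM at 0-1, 1-2 and 2-3 hr (log2 difference -4.66 ± 0.53, SE). Among the most abundant fallen promoters, chosen after their values were seen, the TSC at scaffold_13337:12556826-12557112 (plus strand, 287 bp) had 5830, 2709 and 3063 RPM at 3-4, 4-5 and 5-6 hr, against 12732, 11474 and 9902 RPM at 0-1, 1-2 and 2-3 hr.

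**Figure D3:**
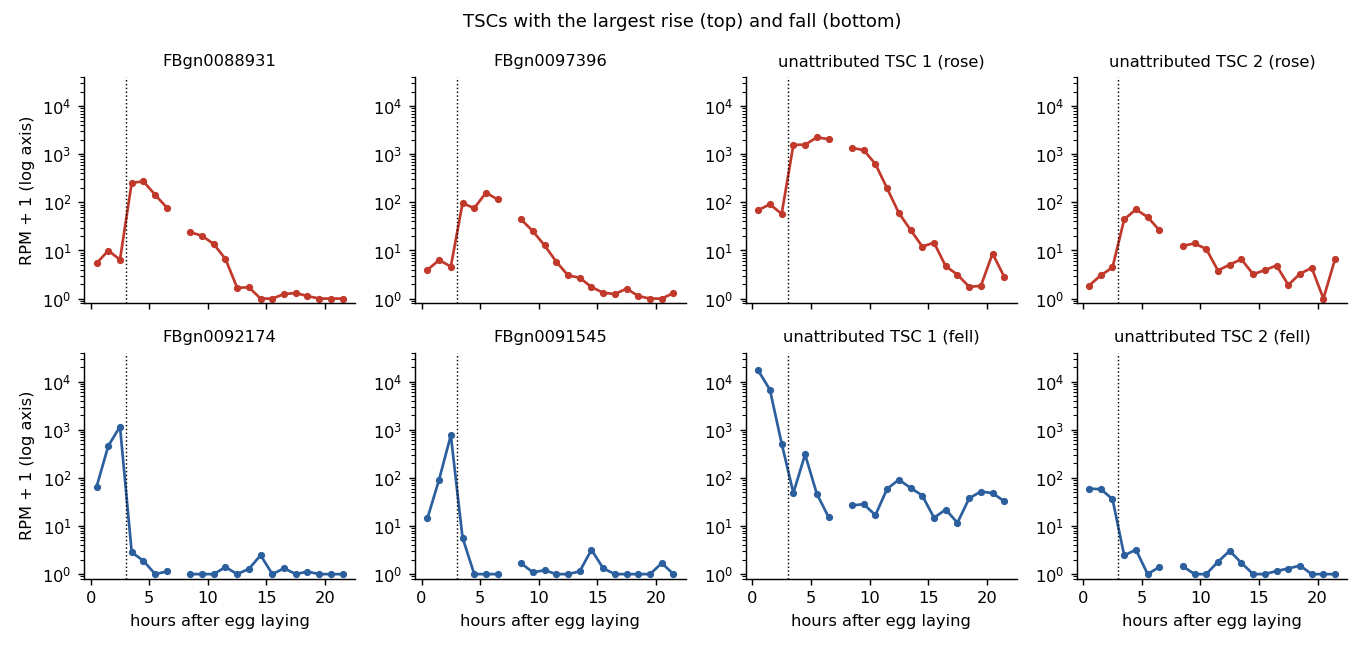
RPM + 1 (log axis) over 21 hourly libraries, 7-8 hr left out, for the TSCs with the largest rise (top row, red) and the largest fall (bottom row, blue) at 3-6 hr against 0-3 hr; the dotted line marks 3 hr. FBgn0092174 and FBgn0091545 climb to 1165 and 767 RPM at 2-3 hr and stay under 5 RPM from 3-4 hr on, whereas the unattributed TSC with 17085 RPM at 0-1 hr is lower in each hour up to 3-4 hr (47.7 RPM).

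A comparison of windows can miss promoters that were high for a short time around 3 hr. By a rule set after the values were seen, a burst was counted where an hour was the highest of the 6 and at least 5-fold above both 0-1 hr and 5-6 hr (RPM + 1). There were 79 such TSCs at 2-3 hr and 56 at 3-4 hr. The rule gave 2 at 1-2 hr and 17 at 4-5 hr, but it asks for a sharper change there, next to the hours it compares with, and says nothing of the neighbours of 2-3 and 3-4 hr. Of the 79 at 2-3 hr, 18 were called lower at 3-6 hr and 61 were not called. Over all 8096 TSCs tested, 17.6% were called lower and 5214 were not called. Among the 79, 78 had their highest value of 21 hourly libraries at 2-3 hr. Their median level was 5.76, 1.33 and 0 RPM at 3-4, 4-5 and 5-6 hr, against 1.96, 9.40 and 50.8 RPM at 0-1, 1-2 and 2-3 hr, and their median width was 38 bp, where all TSCs tested had a median of 105 bp.

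The strongest burst at 2-3 hr was at scaffold_12916:14906220-14906295 (minus strand, 76 bp), with 293, 127 and 82.9 RPM at 3-4, 4-5 and 5-6 hr, against 21.7, 115 and 1714 RPM at 0-1, 1-2 and 2-3 hr. The windows overlapped, and limma gave it an adjusted p of 0.932. At 3-4 hr the strongest was at scaffold_12911:2925619-2925672 (plus strand, 54 bp), which had 417, 22.2 and 4.92 RPM at 3-4, 4-5 and 5-6 hr, against 14.5, 36.5 and 400 RPM at 0-1, 1-2 and 2-3 hr. It was high in 1 library of each window, the 2 that meet at 3 hr, and had an adjusted p of 0.769. Of the 56 bursts at 3-4 hr, 8 were called higher and 48 were not called, beside 18.0% called higher over all TSCs tested. Among the 56, 54 had their highest value of the 21 libraries there.

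Steady promoters made up a smaller part. Of the 5214 TSCs that were not called, 1197 had all 6 values within 2-fold of each other, while 1039 differed at least 2-fold between the windows without passing the test. The highest mean of all belonged to an unattributed TSC of 20 bp at scaffold_13248:3797765-3797784 (minus strand), with 11448, 19018 and 8257 RPM at 3-4, 4-5 and 5-6 hr, against 9977, 10355 and 18268 RPM at 0-1, 1-2 and 2-3 hr. Its values overlapped between the windows (log2 difference -0.02 ± 0.36, SE; limma, adjusted p = 0.966).

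Among TSCs that the authors attributed to no annotated gene, more rose than fell. Of 770 unattributed TSCs tested, 290 rose (37.7%) and 139 fell (18.1%), whereas of 7326 attributed TSCs 1168 rose (15.9%) and 1285 fell (17.5%), beside 18.0% and 17.6% over all TSCs. Their median log2 difference was 1.04, against -0.13 for attributed TSCs. They were lower in level, with a median highest value of 28.8 RPM over the 6 libraries, against 58.3 RPM for attributed TSCs, and among TSCs of any kind the lowest quartile by that value also held the most risers (21.2%, against 16.2% in the top quartile). The part of level in the difference was not tested. Most of these risers passed the minimum of 10 RPM only at 3-6 hr, where 199 of 296 unattributed TSCs rose (67.2%), against 592 of 990 attributed ones (59.8%). Among TSCs that passed in both windows, 91 of 357 unattributed TSCs rose (25.5%) and 76 fell (21.3%), whereas 576 of 5451 attributed TSCs rose (10.6%) and 836 fell (15.3%). Summed over whole libraries, unattributed TSCs took 6.77% ± 0.624 of the RPM at 3-6 hr and 6.50% ± 0.519 at 0-3 hr (SD, n = 3 each), a difference within the spread between libraries (exact permutation p = 0.6).

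Many risen unattributed TSCs were far from known promoters. Of the 290, 129 (44.5%) had their nearest attributed TSC over 5 kb away and 47 (16.2%) lay within 1 kb upstream of one on the opposite strand. For the 139 that fell these numbers were 48 (34.5%) and 25 (18.0%), and for the 341 not called they were 98 (28.7%) and 71 (20.8%). Width set the classes apart little, with a median of 106.5 bp for risen, 104 bp for fallen and 105 bp for uncalled TSCs. The narrowest quartile (1 to 77 bp) and the broadest quartile (150 to 736 bp) nonetheless held more risers (23.2% and 20.9%) than the 2 middle quartiles (12.3% and 15.6%), whereas fallers were 16.6% to 18.9% of every quartile.

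Some genes had promoters that moved in opposite directions. Of 808 genes with several TSCs tested, 229 had at least 1 TSC that rose and none that fell, 171 had at least 1 that fell and none that rose, and 68 (8.42%) had both. A pair of the 68 shared the same TSCs, which leaves 67 distinct sets of promoters. In 64 of the 68, both TSCs changed at least 2-fold. The TSC with the larger rise lay downstream of the one with the larger fall in 40 genes and upstream in 28, at a median distance of 4656 bp (interquartile range 1941 to 11674 bp). It took a median of 46.8% of the gene's TSC reads at 3-6 hr and 3.86% at 0-3 hr. The same libraries chose the TSC, so this difference follows in large part from the calls and is given as a description. Added over all its TSCs, the gene changed less than 2-fold in 46 of the 68 genes (67.6%). Of the 5769 genes tested in the gene table, a different set, 38.7% changed at least 2-fold, so most changed less there too. The number of such genes was 45 with a minimum of 25 RPM, 41 without 0-1 hr, 28 without 1-2 hr, 37 without 4-5 hr and 36 without 5-6 hr.

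Of the 6 pairs with the largest opposed changes, pair 1 lay on scaffold_13340, plus strand. Its TSC at 8368911-8369136 rose to 53.0, 62.3 and 40.8 RPM at 3-4, 4-5 and 5-6 hr, against 1.35, 1.10 and 8.27 RPM at 0-1, 1-2 and 2-3 hr. Its TSC at 8349318-8349545, 19592 bp upstream, fell to 13.8, 13.8 and 7.73 RPM at 3-4, 4-5 and 5-6 hr, against 640, 555 and 215 RPM at 0-1, 1-2 and 2-3 hr. The log2 differences were 3.87 and -5.10 (limma, adjusted p = 0.00339 and 0.00143). The risen TSC made up 67.1% of the gene's TSC reads at 3-6 hr, against 0.737% at 0-3 hr, while the sum over the gene differed by -2.52 on the log2 scale.

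In the other 5 pairs the risen TSC was the upstream one. In pair 2 (scaffold_12943, plus strand) the TSC at 944048-944339 had 91.7, 31.6 and 27.4 RPM at 3-4, 4-5 and 5-6 hr, against 3.67, 4.07 and 1.21 RPM at 0-1, 1-2 and 2-3 hr. The TSC at 947075-947253 had 3.70, 2.67 and 2.11 RPM at 3-4, 4-5 and 5-6 hr, against 79.9, 122.5 and 25.6 RPM at 0-1, 1-2 and 2-3 hr. The gene as a whole changed by -0.79 on the log2 scale, with 99.7, 35.6 and 31.6 RPM at 3-4, 4-5 and 5-6 hr, against 97.6, 148 and 40.9 RPM at 0-1, 1-2 and 2-3 hr. These sums overlapped between the windows, while most of the reads came from the first TSC at 3-6 hr (90.3%) and from the second at 0-3 hr (79.5%). Pair 3 (scaffold_13266, plus strand, 4982420-4982538 and 4985138-4985206) and pair 4 (scaffold_12916, minus strand, 1897423-1897680 and 1882192-1882257) had sums that differed by 1.09 and 0.78 on the log2 scale, without overlap in pair 3 and with overlap in pair 4. In both the risen TSC held about all of the sum at 3-6 hr (97.0% and 96.8%), against 20.7% and 6.94% at 0-3 hr.

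Pairs 5 and 6 differed in the sum over the gene, at -2.85 and 2.77 on the log2 scale. In pair 5 (scaffold_13417, plus strand) the TSC at 321557-321862 fell to 50.4, 70.7 and 21.8 RPM at 3-4, 4-5 and 5-6 hr, against 2303, 1661 and 248 RPM at 0-1, 1-2 and 2-3 hr, more than its TSC at 304992-305152 gained. That TSC had 73.2, 118.7 and 97.7 RPM at 3-4, 4-5 and 5-6 hr, against 4.41, 6.90 and 31.3 RPM at 0-1, 1-2 and 2-3 hr. In pair 6 (scaffold_12911, plus strand) the TSC at 4970896-4971186 rose to 267, 383 and 599 RPM at 3-4, 4-5 and 5-6 hr, against 20.7, 28.8 and 49.4 RPM at 0-1, 1-2 and 2-3 hr. The TSC at 4992764-4992849 was a minor one by then, with 3.91, 1.33 and 1.41 RPM at 3-4, 4-5 and 5-6 hr, against 30.5, 25.7 and 17.9 RPM at 0-1, 1-2 and 2-3 hr.

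**Figure D4:**
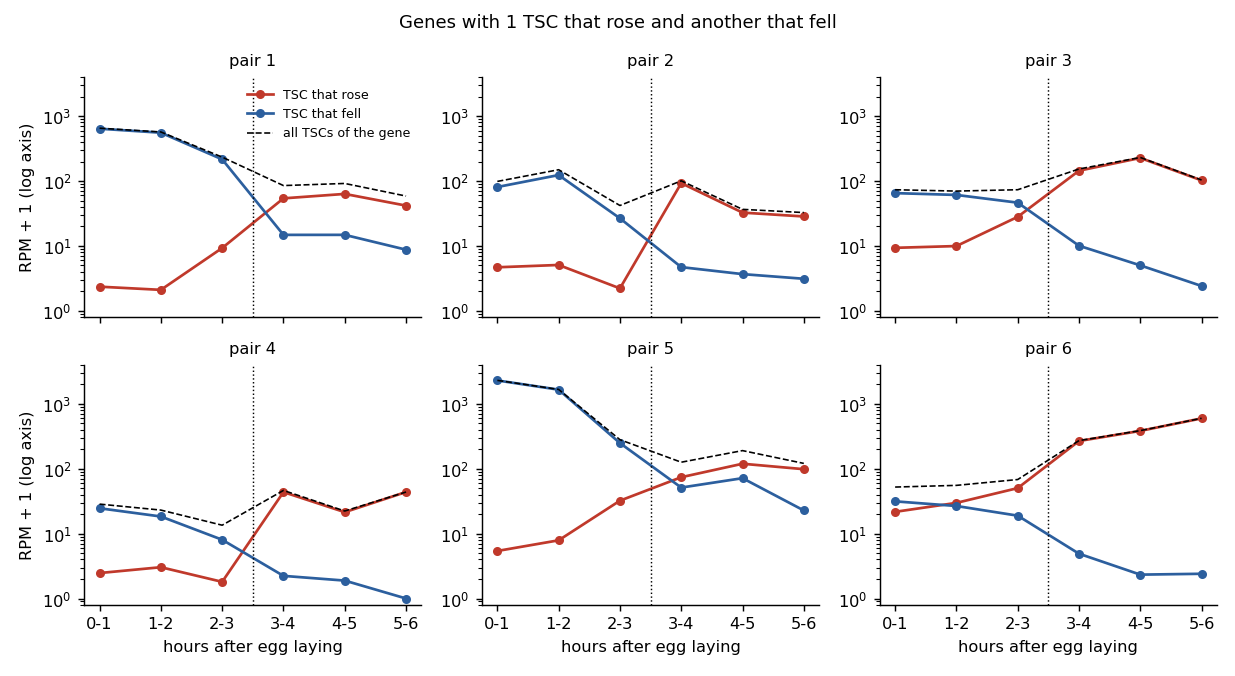
RPM + 1 (log axis) over the 6 hourly libraries for 6 genes with a TSC that rose (red) and a TSC that fell (blue); the dashed line is the sum over all TSCs of the gene and the dotted line separates the windows. The 2 TSCs cross near 3 hr in 5 pairs and earlier in pair 6, while the sum is lower at 3-6 hr in pairs 1 and 5, higher in pairs 3 and 6, and overlaps between the windows in pairs 2 and 4.

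Risen promoters also lay side by side. The stretches below were chosen after their values were seen and carry no test, and TSCs of 1 gene are not independent of each other. At scaffold_13337:4149986-4179672, 5 consecutive TSCs tested rose, 4 of them from 4 genes and 1 the unattributed TSC with the largest rise, with log2 differences of 3.66 to 4.63. The TSC at 4154613-4154716 had 1052, 1133 and 1462 RPM at 3-4, 4-5 and 5-6 hr, against 51.7, 98.6 and 85.7 RPM at 0-1, 1-2 and 2-3 hr. The TSC at 4179640-4179672 had 1315, 1083 and 1234 RPM at 3-4, 4-5 and 5-6 hr, against 58.4, 60.8 and 234.5 RPM at 0-1, 1-2 and 2-3 hr. Narrow initiation was common there, as 3 of the 5 TSCs were 14 to 33 bp wide.

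A second stretch, at scaffold_13340:11278171-11293232, held 5 risen TSCs from 5 genes within 15062 bp, with log2 differences of 2.30 to 4.41. Its strongest, at 11287387-11287405, had 936, 385 and 970 RPM at 3-4, 4-5 and 5-6 hr, against 26.3, 26.3 and 47.6 RPM at 0-1, 1-2 and 2-3 hr. Another, at scaffold_13340:14071783-14086261, held 7 risen TSCs, of which 3 belonged to 1 gene and 4 to none. The main TSC of that gene, at 14084178-14084393 on the minus strand, had 2232, 1254 and 2215 RPM at 3-4, 4-5 and 5-6 hr, against 79.7, 117 and 431 RPM at 0-1, 1-2 and 2-3 hr. Another TSC of that gene, at 14085185-14085438 on the minus strand, overlapped an unattributed TSC at 14085049-14085282 on the plus strand. The unattributed one had 85.3, 104 and 70.3 RPM at 3-4, 4-5 and 5-6 hr, against 3.55, 4.54 and 32.1 RPM at 0-1, 1-2 and 2-3 hr.

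Divergent promoters of different genes included fewer risen members than attributed TSCs in general, and nearly as many fallen ones. There were 944 pairs of attributed TSCs on opposite strands that faced away from each other within 500 bp, at a median distance of 190 bp. Both members rose in 10 pairs and both fell in 26, while 1 rose and the other fell in 14. Of the 1888 members 6.83% rose and 15.3% fell, beside 15.9% and 17.5% of all attributed TSCs tested. Of the risen members 15.5% had a risen partner, and of the fallen members 18.0% had a fallen partner. In 70 further pairs of an attributed and an unattributed TSC, both rose in 6 and both fell in 0, and 12 of the 27 risen members (44.4%) had a risen partner. Of the 140 members of these pairs, 19.3% rose and 12.9% fell, beside 18.0% and 17.6% over all TSCs tested. Among the 12 scaffolds with at least 100 TSCs tested, risen TSCs were 12.6% to 19.4% and fallen TSCs 15.3% to 30.2%, around the same 18.0% and 17.6%. The highest share of fallers, on scaffold_13248 (58 of 192), was picked as the largest of the 12 and carries no test.

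In the gene table a smaller share of features was called, but its set is not that of the TSCs. It holds 8758 rows, whereas 10347 genes had an attributed TSC. Of 5769 genes, 737 were higher (12.8%) and 922 lower (16.0%) at 3-6 hr, with median log2 differences of 2.39 and -1.76. The median of all genes was -0.17, and edgeR's quasi-likelihood test called 721 higher and 785 lower. Risen genes held 19.7%, 21.3% and 23.5% of the gene RPM at 3-4, 4-5 and 5-6 hr, against 5.50%, 6.11% and 7.93% at 0-1, 1-2 and 2-3 hr. Fallen genes held 8.09%, 7.30% and 7.13% at 3-4, 4-5 and 5-6 hr, against 24.8%, 25.0% and 20.5% at 0-1, 1-2 and 2-3 hr. The mean at 0-3 hr was already 10 RPM or more for 352 of the risen genes (47.8%). Of the 27 genes with opposed TSCs that could be matched to a row of the table by their reads, 19 were not called, 3 rose and 5 fell. Over all 5769 genes, 4110 were not called. Genes higher and lower were 360 and 385 without 1-2 hr, 420 and 555 without 4-5 hr and 355 and 528 without 5-6 hr, and genes lower were 563 without 0-1 hr, 1444 without 2-3 hr and 611 without 3-4 hr.

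The later hours took no part in the calls, but the early levels they are set against did. The 15 libraries of 6-22 hr without 7-8 hr were used. Of the fallen TSCs, 235 (16.5%) reached their mean of 0-3 hr again in at least 1 of those libraries, against 58.5% of all TSCs tested and 58.5% of those not called, and 138 (9.69%) never came to 10 percent of it. Their highest value of all 21 libraries was at 0-3 hr for 89.6% and at 19-22 hr for 4.56%, against 43.6% and 5.36% of all TSCs tested. Fallen TSCs were called for high levels at 0-3 hr, so these gaps follow in part from the calls. Relative to 0-3 hr, the median fallen TSC stood at -1.84 on the log2 scale at 3-6 hr and at -1.82 at 6-10 hr, -1.64 at 10-13 hr and -2.17 at 19-22 hr.

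By their calls, risen promoters were left to have their highest hour at 3-6 hr or later. Of the 1458, 682 (46.8%) had their highest value of the 21 libraries at 3-6 hr, 349 (23.9%) at 6-10 hr, 240 (16.5%) at 10-13 hr and 187 (12.8%) later. Over all TSCs tested these shares were 26.2%, 11.0%, 9.40% and 9.77%. Another 43.6% of all TSCs were highest at 0-3 hr, which the calls denied to risen TSCs, so the 2 sets of shares are not alike. The mean of 3-6 hr was reached in at least 1 library of 6-22 hr by 992 of the risen TSCs (68.0%), and 6 never came to 10 percent of it. This sets the highest of 15 libraries against a mean of 3, which favours reaching it, and no like share over all TSCs was taken. Relative to 3-6 hr, the median risen TSC stood at -0.01 on the log2 scale at 6-10 hr, -0.56 at 10-13 hr, -1.31 at 13-16 hr and -2.03 at 19-22 hr. TSCs that were not called also declined, relative to 0-3 hr, to -1.24 at 19-22 hr, and all were chosen for expression before 6 hr.

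**Figure D5:**
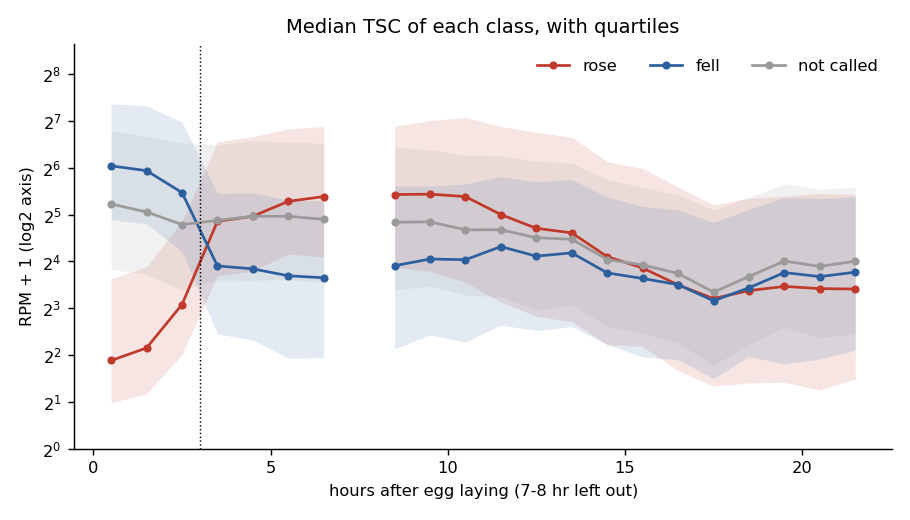
Median RPM + 1 (log2 axis) of the TSCs that rose (red), fell (blue) or were not called (grey) over the 21 hourly libraries, with bands from the lower to the upper quartile; 7-8 hr was left out and the dotted line marks 3 hr. The risen and fallen medians cross between 2-3 and 3-4 hr, and the fallen median stays below its early level through 21-22 hr.

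The same test between later neighbouring windows called fewer TSCs. It called 0 of 8413 (0.0%) at 6-10 hr against 3-6 hr and 0 of 8921 (0.0%) at 10-13 hr against 6-10 hr, where edgeR's quasi-likelihood test also called 0 and where 2617 and 2587 TSCs had an unadjusted limma p under 0.05. The later steps gave 175 (2.01%) at 13-16 hr, 782 (9.81%) at 16-19 hr and 386 (5.14%) at 19-22 hr, beside 2882 (35.6%) at 3-6 hr against 0-3 hr. That first step had 3780 of 8096 TSCs with an unadjusted limma p under 0.05. Neighbouring steps share libraries, the 6-10 hr window spans 4 hr, and each count also depends on how much the hours within a window differ. The median absolute log2 difference, which needs no test, was 0.91 at 3-6 hr against 0-3 hr and 0.63, 0.63, 0.59, 0.67 and 0.47 at the later steps.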

How the data were processed

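RAMPAGE libraries of hourly collections of D. ananassae embryos were used, with groups taken from the stage in the sample labels. STAR was the authors' aligner, and a dedicated caller grouped start sites of the pooled series into TSCs, which were attributed to annotated genes where read pairs allowed. The values in both deposited expression tables are RPM, for which the authors divided by the depth of each hour. The deposited peak list gives a score that was not used, only positions and strands. The smoothed gene table and the 7-8 hr library, which the study excluded, were not used.

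Dividing by the worth of a single read in each library gave back the read numbers, and 100.0% of values were whole within 0.1 read. Windows were compared by limma with an intensity trend on log2(RPM + 1) for rows with at least 10 RPM in any of the 6 libraries, adjusted by Benjamini-Hochberg at 0.05. The pseudocount of 1 RPM understates changes of low TSCs. Values per library were compared by two-sided exact permutation tests. The fits were also run on simulated counts with independent replicates. Those counts lack the change within a window that these data hold, so they say nothing of error rates here.

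Members, lists and tests were chosen with earlier results of these data known. The rule for named items allowed the 2 attributed and 2 unattributed TSCs with the largest call in each direction and the 6 genes with the largest opposed TSC changes. Of 19104 identifiers, 0 matched the reference gene table, so fixed lists of named genes and cell type markers were not matched, and promoter motifs were not counted because no genome sequence was used here. Alternatives were other pseudocounts (0.5 and 5 RPM), other filters, TMM scaling, edgeR and DESeq2 on recovered reads, limma without trend, a 2-fold minimum and each library left out. Thinning and a fit with 1 row per position were added after seeing the data. Fits were made in R 4.3.3 (limma 3.58.1, edgeR 4.0.16, DESeq2 1.42.0) and summaries and figures in Python 3.11.15 (pandas 2.3.3, numpy 2.4.6, matplotlib 3.10.9, scipy 1.17.1).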

Additional observations from a re-analysis of the deposited data

How the results depend on the processing

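No paired analysis was possible because each hour is 1 library and the numbers within a window only order the hours. Leaving out each library in turn gave 776 to 1793 TSCs higher and 617 to 1982 lower, 355 to 966 genes higher and 385 to 1444 lower, and 28 to 80 genes with opposed TSCs. A minimum of 25 RPM gave 951 TSCs higher, of 5851 tested, and 45 genes with opposed TSCs. The other alternatives kept the counts of calls within 1.5 times of those reported, including 2 chosen after seeing the data, thinning (1328 higher and 1321 lower) and 1 row per position (1443 and 1410). The difference between windows in TSCs with a read was 2475 after thinning, 355 without it and 1497 with at least 3 reads. TMM scaling gave 1289 higher and 1781 lower, and no filter gave 2013 and 1367 of 23271 tested. No alternative called a TSC or gene in the direction opposite to the reported call. Of 367 values of 23 named called TSCs, 364 kept their direction and call, and 3 lost the call when a library of 3-6 hr was left out. The difference between windows in the share of unattributed RPM was 0.268 percentage points, ranged from -0.02999 to 0.593 and changed sign without 1-2 hr (-0.02999) and without 4-5 hr (-0.0295). The alternatives for motif shares and for lists of named genes were not run. Depth limits low levels most at 5-6 hr, where 3 reads are 2.11 RPM.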
